A study of Mus musculus with 8 samples.

Results

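The enzymes of pyruvate use and of the tricarboxylic acid (TCA) cycle were followed in the vWAT transcriptome of KIKO mice. The set holds 31 genes, chosen by symbol through the Ensembl identifiers of the count table and the mouse gene annotation, out of 31053 genes in the table. All 31 were tested, among 11080 genes kept by the filter on low counts. RNA was sequenced from vWAT of 4 KIKO and 4 WT male mice aged 8 months on a C57BL/6 background, with 1 library per mouse. KIKO mice, a knock-in/knockout line altered in every tissue, are a model of Friedreich's ataxia. WT mice are the control, and the labels give neither genotype a further treatment. The sample titles name the depot EWAT.

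Pyruvate made by glycolysis enters the mitochondrion through a carrier and is either decarboxylated to acetyl-CoA by the pyruvate dehydrogenase complex or carboxylated to oxaloacetate. Citrate synthase joins acetyl-CoA to oxaloacetate, and the TCA cycle oxidizes the citrate back to oxaloacetate, feeding electrons to the respiratory chain. White adipocytes also export part of the citrate as a source of carbon for fatty acid synthesis. Succinate dehydrogenase and lipoic acid synthase need iron-sulfur clusters, whose assembly is impaired in Friedreich's ataxia, so the pathway is a known point of contact between the disease and fuel oxidation. The genotype comparison asks whether transcripts of these enzymes differ in fat of KIKO mice.

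Levels are given as CPM, counts relative to the library total and scaled by TMM, and they compare mice for a gene, not genes with each other. A gene passed when its adjusted p in edgeR's quasi-likelihood test was under 0.05. Of the 31 members, 0 passed in either direction, where 0.28% of all tested genes were higher and 0.397% lower in KIKO mice. The count was also 0 in DESeq2, which called 284 of 5941 genes, and in limma-voom, which called 40 of 11080. DESeq2 gave an adjusted p to those 5941 genes only, and *Pdp1* was not among them. At an unadjusted p under 0.05, 4 members were higher in KIKO mice (*Cs*, *Suclg1*, *Idh2* and *Suclg2*), beside 7.13% of all tested genes, and 2 were lower (*Pdk2* and *Idh3a*), beside 9.06% of all tested genes. The 2 genotypes did not overlap for 1 higher member, *Cs*, and for 0 lower members, where the shares over all tested genes were 3.89% and 4.56%. These member counts lie near the background of the whole table. Of the members, 20 had a fold change above 1 and 11 below 1 (16 and 15 when scaled by library totals alone). The median of their log2 fold changes was 0.08, beside -0.01 over all tested genes. It was 0.02 without WT mouse 2, 0.03 without KIKO mouse 2 and 0.16 without WT mouse 3, and 0.01 when scaled by library totals alone.

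The members were measured more tightly than the table as a whole. Their median standard error was 0.15 on the log2 scale, against 0.19 over all tested genes. Of the members, 23 of 31 differed by less than 1.2-fold (74.2%, against 62.6% of all tested genes). The median absolute log2 fold change was the same, 0.19 in the members and 0.19 over all tested genes. The members and the whole table were not matched for expression level. The 95% interval of the genotype difference stayed within 1.5-fold in both directions for 21 members (67.7%, against 44.1%) and within 2-fold for all 31 (100%, against 85.2%). A genotype difference of 2-fold or more therefore lies outside the interval of every member. Differences under 1.5-fold were not settled for the 21 members, and differences under 2-fold were not settled for the 10 members with wider intervals. Each is a single 95% interval, not adjusted for the 31 genes.

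**Figure D1:**
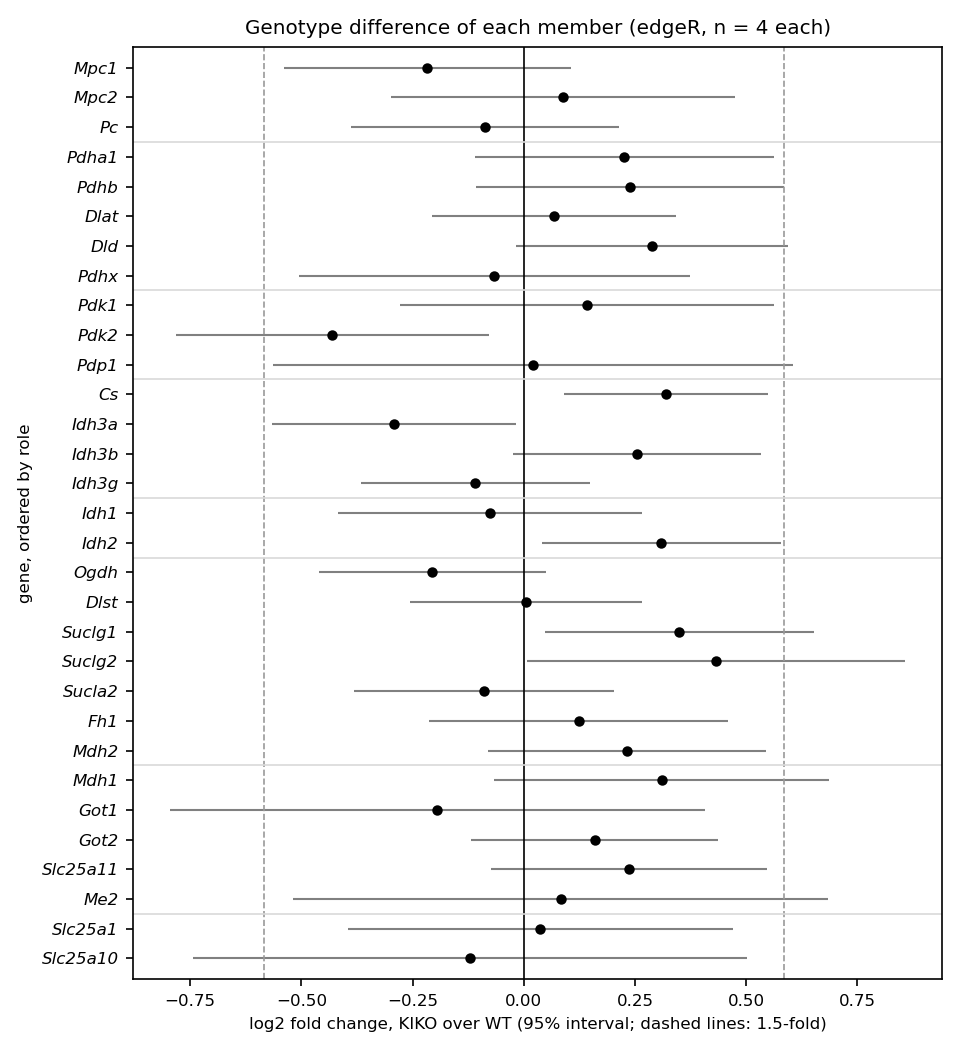
Log2 fold change of each of the 31 members (points; KIKO over WT, edgeR, n = 4 mice each) with its 95% interval (lines), ordered by role from pyruvate entry at the top to the carriers at the bottom. Dashed lines mark 1.5-fold, all points lie between -0.43 and 0.43, and the intervals of 6 members leave out 0.

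Citrate synthase came closest to the threshold. *Cs* (ENSMUSG00000005683, chromosome 10 of GRCm38 from 128337734 to 128362479, plus strand) encodes the enzyme that opens the cycle. It had 159, 157, 160 and 164 CPM in KIKO mice 1 to 4, against 124, 136, 135 and 119 CPM in WT mice 1 to 4. Every KIKO mouse was above every WT mouse, and the KIKO mice lay within a few CPM of each other. The means were 160 ± 3.05 CPM in KIKO and 128 ± 8.31 CPM in WT mice (SD, n = 4 each), a 1.25-fold difference (95% interval 1.06 to 1.46) with an adjusted p of 0.167 in edgeR's quasi-likelihood test. Over 20 other settings its log2 fold change stayed between 0.25 and 0.35, and its adjusted p between 0.0564, in DESeq2, and 0.372, without KIKO mouse 4.

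The promoters of *Cs* and of *Pdk2*, the members with the smallest p in each direction, are shown. Of the 31 members, 28 were found in the RefSeq promoter table (GRCm38.p6), and the 250 bases before the start were read 5′ to 3′ on the strand of the gene. For both genes the RefSeq start lies some bases before the start in the gene positions printed in this text. Capitals mark the GC box GGGCGG and the CCAAT box CCAAT on either strand.
*Cs*, chr10:128337477-128337726, plus strand: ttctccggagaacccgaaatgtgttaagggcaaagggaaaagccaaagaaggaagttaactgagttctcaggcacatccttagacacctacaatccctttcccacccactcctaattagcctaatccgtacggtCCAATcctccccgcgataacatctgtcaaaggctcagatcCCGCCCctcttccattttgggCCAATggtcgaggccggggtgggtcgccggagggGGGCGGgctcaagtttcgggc
*Pdk2*, chr11:95041372-95041621, minus strand: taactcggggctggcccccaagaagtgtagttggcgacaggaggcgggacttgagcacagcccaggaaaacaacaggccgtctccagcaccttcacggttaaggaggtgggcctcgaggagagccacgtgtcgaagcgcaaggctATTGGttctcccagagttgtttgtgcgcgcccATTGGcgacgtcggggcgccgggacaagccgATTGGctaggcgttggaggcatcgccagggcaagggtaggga
The *Cs* window holds 2 GC boxes and 2 CCAAT boxes, and the *Pdk2* window shown, the first of 2 for this gene, holds 0 GC boxes and 3 CCAAT boxes. A CCAAT box in any of a gene's windows was found for 17 of the 28 members (60.7%), and for 39.8% of the 8728 tested genes with a promoter and 37.5% of all 27025 genes of that table. A GC box was found for 19 members (67.9%), beside 65.4% of tested genes and 35.4% of all genes. Matches of this length are descriptions of the letters, not bound sites.

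Pyruvate entry showed no genotype difference beyond the spread of the mice. *Mpc1* and *Mpc2*, which together form the mitochondrial pyruvate carrier, had log2 fold changes of -0.22 (SE 0.15) and 0.09 (SE 0.18). The value of *Mpc2* was -0.040 without WT mouse 1 and -0.012 without WT mouse 2. *Mpc1* averaged 50.2 ± 6.54 CPM in KIKO and 58.3 ± 10.6 CPM in WT mice. *Pc* (listed as *Pcx* in the annotation), pyruvate carboxylase, which refills oxaloacetate and is abundant in fat, averaged 456 ± 78.8 CPM in KIKO and 484 ± 55.4 CPM in WT mice. Its 95% interval ran from 0.764-fold to 1.16-fold. The annotation names a processed pseudogene of *Mpc1*, and 1 of *Got2*, so their counts are less certain. Only pseudogenes named after a member were searched, so copies of any member under other names were not checked.

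Of the 5 genes of the pyruvate dehydrogenase complex, 4 had a fold change above 1 (3 when scaled by library totals alone) and none passed, with a median log2 fold change of 0.23. The complex is built from the E1 subunits *Pdha1* and *Pdhb*, the acetyltransferase *Dlat*, the dehydrogenase *Dld*, which the oxoglutarate dehydrogenase complex shares, and the binding protein *Pdhx*. *Dld* (chromosome 12 from 31331277 to 31351453) had 62.4, 85.1, 71.6 and 77.0 CPM in KIKO mice, against 52.6, 57.5, 74.6 and 57.6 CPM in WT mice, a log2 fold change of 0.29 (SE 0.14). Only WT mouse 3 reached the range of the KIKO mice. *Pdha1* averaged 291 ± 48.2 CPM in KIKO and 248 ± 51.0 CPM in WT mice. *Pdhb* averaged 175 ± 10.9 CPM in KIKO and 148 ± 36.7 CPM in WT mice, where WT mouse 1 had 94.2 CPM and the other WT mice 159 CPM or more. *Dlat* was level, at 51.0 ± 1.98 CPM in KIKO and 48.6 ± 5.80 CPM in WT mice. *Pdhx*, the member of the complex below 1, had 51.5, 50.4, 42.8 and 50.4 CPM in KIKO mice, against 29.2, 48.8, 73.3 and 53.2 CPM in WT mice, so that WT mice 1 and 3 lay on either side of all KIKO mice.

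*Pdk1* and *Pdk2*, the kinases of the set that switch the complex off, did not pass either. Outside the set, the kinase gene *Pdk3* had a fold change of 1.31 and *Pdk4*, at 3 to 27 counts per library, of 0.539. Their adjusted p were 0.315 and 0.280 in edgeR's quasi-likelihood test. *Pdk2* (ENSMUSG00000038967, chromosome 11 from 95026258 to 95041354, minus strand) encodes a widely expressed pyruvate dehydrogenase kinase. It had 94.1, 144, 97.2 and 103 CPM in KIKO mice, against 193, 131, 137 and 127 CPM in WT mice. Mice 1, 3 and 4 of the KIKO genotype were below every WT mouse, and KIKO mouse 2 was above all WT mice but WT mouse 1. The fold change was 0.742 (95% interval 0.582 to 0.947), with an adjusted p of 0.215 in edgeR's quasi-likelihood test. *Pdk1*, a kinase known as a target of hypoxia signalling, averaged 23.4 ± 7.10 CPM in KIKO and 21 ± 2.43 CPM in WT mice, and KIKO mouse 2 was the highest, at 34.0 CPM. Its log2 fold change was 0.14 (SE 0.20), and -0.078 without KIKO mouse 2. *Pdp1*, the phosphatase that switches the complex back on, averaged 5.94 ± 1.52 CPM in KIKO and 5.78 ± 0.853 CPM in WT mice, with a 95% interval of 0.676-fold to 1.52-fold.

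After citrate synthase, none of the subunits of NAD-dependent isocitrate dehydrogenase passed, and the difference between subunits was not tested. *Idh3a* (chromosome 9 from 54586334 to 54604661), the catalytic alpha subunit, had 112, 145, 141 and 112 CPM in KIKO mice, against 165, 164, 135 and 158 CPM in WT mice. KIKO mice 1 and 4 were below all WT mice, and WT mouse 3 was below KIKO mice 2 and 3. Its fold change was 0.817 (95% interval 0.676 to 0.988, adjusted p = 0.275 in edgeR's quasi-likelihood test). *Idh3b* (chromosome 2 from 130279309 to 130284547), a beta subunit of the same enzyme, had 110, 129, 108 and 116 CPM in KIKO mice, against 78.9, 93.3, 103 and 112 CPM in WT mice, and WT mouse 4 alone lay inside the KIKO range. Its log2 fold change was 0.25 (SE 0.13). *Idh3b* overlaps *Nop56* on the other strand, which had 809 counts over the 8 libraries beside 2586 for *Idh3b*, and their reads are told apart only if counting used the strand. *Idh3g*, the gamma subunit, averaged 160 ± 6.71 CPM in KIKO and 173 ± 23.2 CPM in WT mice.

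The NADP-dependent isocitrate dehydrogenases supply NADPH, *Idh2* in the mitochondrion and *Idh1* in the cytosol. *Idh2* (chromosome 7 from 80094846 to 80115392) had 132, 132, 112 and 139 CPM in KIKO mice, against 85.9, 105, 114 and 111 CPM in WT mice. KIKO mice 1, 2 and 4 were above every WT mouse, and KIKO mouse 3 lay among them. The difference was 1.24-fold (95% interval 1.03 to 1.49, adjusted p = 0.240 in edgeR's quasi-likelihood test). *Idh1* averaged 159 ± 24.6 CPM in KIKO and 168 ± 33.9 CPM in WT mice.

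**Figure D2:**
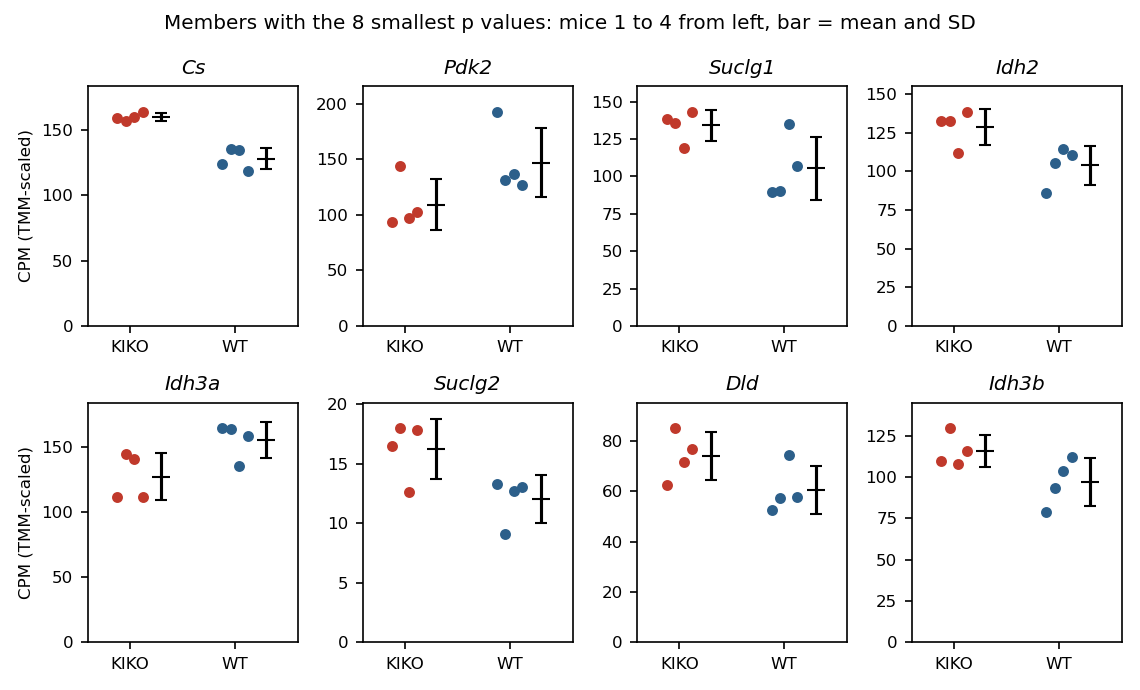
CPM of the 8 members with the smallest p in KIKO (left) and WT (right) mice, with mice 1 to 4 from left to right and the mean ± SD beside them; every axis starts at 0. The genotypes do not overlap for *Cs* (157 to 164 CPM in KIKO, against 119 to 136 CPM in WT mice) and overlap for the other members shown.

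From oxoglutarate to oxaloacetate, 5 of 7 genes had a fold change above 1 (4 when scaled by library totals alone) and none passed. *Ogdh* and *Dlst*, which form the oxoglutarate dehydrogenase complex with *Dld*, had log2 fold changes of -0.21 (SE 0.12) and 0.01 (SE 0.12). *Suclg1* (chromosome 6 from 73248382 to 73276911) encodes the alpha subunit that both forms of succinyl-CoA ligase share. It had 139, 135, 119 and 143 CPM in KIKO mice, against 89.4, 89.9, 135 and 107 CPM in WT mice, and without WT mouse 3 the genotypes would not overlap. Its log2 fold change was 0.35 (SE 0.14), with an adjusted p of 0.238 in edgeR's quasi-likelihood test, and without WT mouse 3 it was 0.49, with an adjusted p of 0.0324. Without WT mouse 3, 2.53% of all tested genes passed as higher in KIKO mice (285 of 11261), so calls were more frequent across the whole table in that fit.

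The beta subunits set the nucleotide that succinyl-CoA ligase makes, GTP with *Suclg2* and ATP with *Sucla2*. *Suclg2* (chromosome 6 from 95473009 to 95718800) had 16.5, 18, 12.6 and 17.9 CPM in KIKO mice, against 13.3, 9.09, 12.7 and 13.1 CPM in WT mice, so KIKO mouse 3 lay within the WT range and the other KIKO mice above it. This was the largest fold change above 1 among the members, 1.35-fold (95% interval 1 to 1.81, adjusted p = 0.302 in edgeR's quasi-likelihood test). *Sucla2* averaged 98.1 ± 8.90 CPM in KIKO and 104 ± 18.2 CPM in WT mice. *Fh1*, fumarase, averaged 47.1 ± 10.8 CPM in KIKO and 43.4 ± 2.61 CPM in WT mice, with KIKO mouse 3 highest at 60.9 CPM. *Mdh2*, the malate dehydrogenase that closes the cycle, averaged 496 ± 35.1 CPM in KIKO and 422 ± 94.3 CPM in WT mice.

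The malate-aspartate shuttle carries reducing equivalents from the cytosol into the mitochondrion. Its cytosolic malate dehydrogenase *Mdh1* had 532, 480, 456 and 564 CPM in KIKO mice, against 313, 337, 596 and 394 CPM in WT mice. WT mouse 3 was the highest of all mice and the other WT mice were below every KIKO mouse. The log2 fold change was 0.31 (SE 0.18, adjusted p = 0.410 in edgeR's quasi-likelihood test), and without WT mouse 3 it was 0.55, with an adjusted p of 0.0249, in the fit where 2.53% of all tested genes passed as higher. *Slc25a11*, the oxoglutarate carrier of the shuttle, averaged 62.6 ± 4.94 CPM in KIKO and 53.3 ± 10.2 CPM in WT mice, and it overlaps *Rnf167* on the other strand (633 counts, beside 1418 for *Slc25a11*). The aspartate aminotransferases *Got1*, cytosolic, and *Got2*, mitochondrial, had log2 fold changes of -0.19 (SE 0.28) and 0.16 (SE 0.13). *Got1* averaged 8.08 ± 2.89 CPM in KIKO and 9.11 ± 2.06 CPM in WT mice, and *Me2*, mitochondrial malic enzyme, 7.40 ± 2.17 CPM in KIKO and 7.05 ± 1.75 CPM in WT mice.

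The carriers that move citrate and dicarboxylates across the mitochondrial membrane varied widely from mouse to mouse. *Slc25a1*, the citrate carrier, averaged 337 ± 104 CPM in KIKO and 328 ± 74.3 CPM in WT mice. *Slc25a10*, the dicarboxylate carrier, had 147, 103, 84.9 and 129 CPM in KIKO mice, against 49.5, 105, 189 and 161 CPM in WT mice. The WT mice alone spanned more than the KIKO mice did, from WT mouse 1 at the bottom to WT mouse 3 at the top, and the log2 fold change was -0.12 (SE 0.29).

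**Figure D3:**
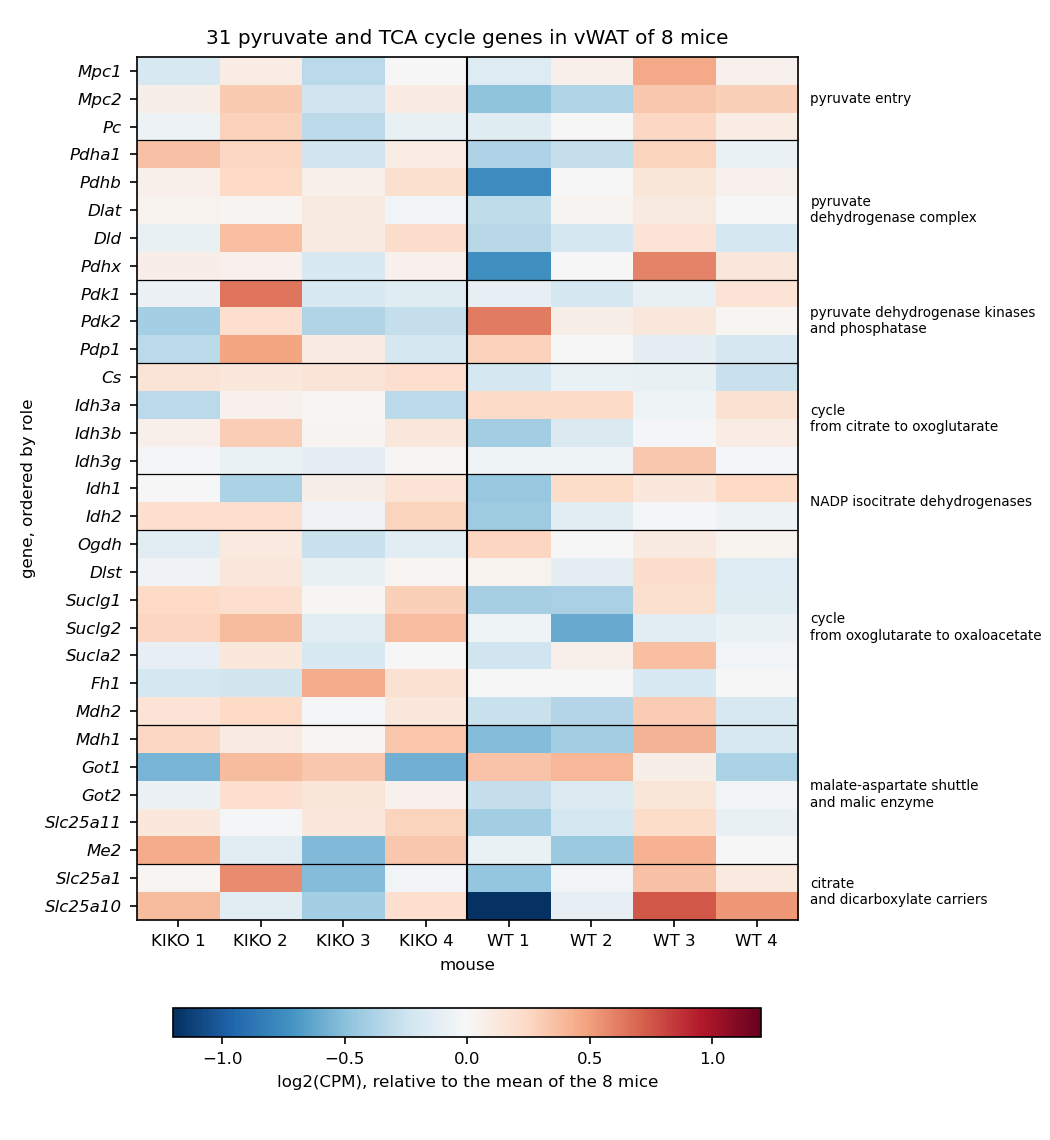
Level of each of the 31 members (rows, ordered by role) in each mouse (columns, KIKO left of WT) as log2 CPM relative to the mean of the 8 mice; red is higher and blue lower. The column of WT mouse 1 is mostly blue, with the lowest value of the 8 mice in 15 members, and that of WT mouse 3 mostly red, with the highest value in 10 members. KIKO mouse 2 has the highest value in 9 members.

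WT mice 1 and 3 lay at opposite ends for many members. WT mouse 1 had the lowest of the 8 values in 15 members (48.4%, beside 18.5% of all tested genes) and WT mouse 3 the highest in 10 (32.3%, beside 12.9%). KIKO mouse 2 was the highest in 9 members and KIKO mouse 3 the lowest in 6. Shares over all tested genes were not computed for these KIKO mice. The median level of the members relative to the mean of all mice was 0.02, 0.20, -0.04 and 0.09 on the log2 scale in KIKO mice 1 to 4, against -0.27, -0.08, 0.17 and -0.00 in WT mice 1 to 4. The KIKO mice thus lay inside the span of WT mice 1 and 3, apart from KIKO mouse 2, which was the highest. The summed level of the members was 4021 to 4962 CPM in KIKO mice and 3638 to 5175 CPM in WT mice. The SD of log2 CPM was larger in WT mice for 21 of the 31 members (67.7%, beside 55.5% of all tested genes), with a median of 0.19 in KIKO and 0.25 in WT mice.

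Other measures of the same libraries are given beside the members, and no association with the members' levels was computed. Mitochondrially encoded genes took 9.93% to 10.6% in KIKO mice, against 6.91% in WT mouse 1, 10.7% in WT mouse 3, and 9.15% and 9.38% in the other WT mice, as a share of all counts. For 12 adipocyte markers, of which none passed, the median level relative to the mean of all mice was -0.06, 0.16, 0.04 and 0.08 in KIKO mice, against -0.20, -0.21, 0.28 and 0.14 in WT mice (log2 scale). Of these markers, 7 had a fold change above 1 and 5 below 1. Their summed level was 58650 to 74298 CPM in KIKO and 47537 to 58294 CPM in WT mice. A large part of that sum was 1 gene, *Cfd*, with 21070.9 to 42446.5 CPM in KIKO and 16643.4 to 21581.9 CPM in WT mice. In bulk tissue, fewer cells of a type and less RNA per cell cannot be told apart. The part of adipocyte content in the members' levels was not tested. Across genes, which are not independent, the level in a library relative to all mice had a Spearman's rho with transcript length of -0.17, -0.16, -0.08 and -0.21 in KIKO mice, against 0.26, 0.25, -0.11 and 0.11 in WT mice. Log2 fold changes had a rho with transcript length of -0.28 over 11075 tested genes and 0.06 over the 31 members. On the first principal component of all tested genes, WT mouse 3 (12.6) lay among the KIKO mice (4.04 to 24.0), away from the other WT mice (-38.6 to -8.43).

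**Figure D4:**
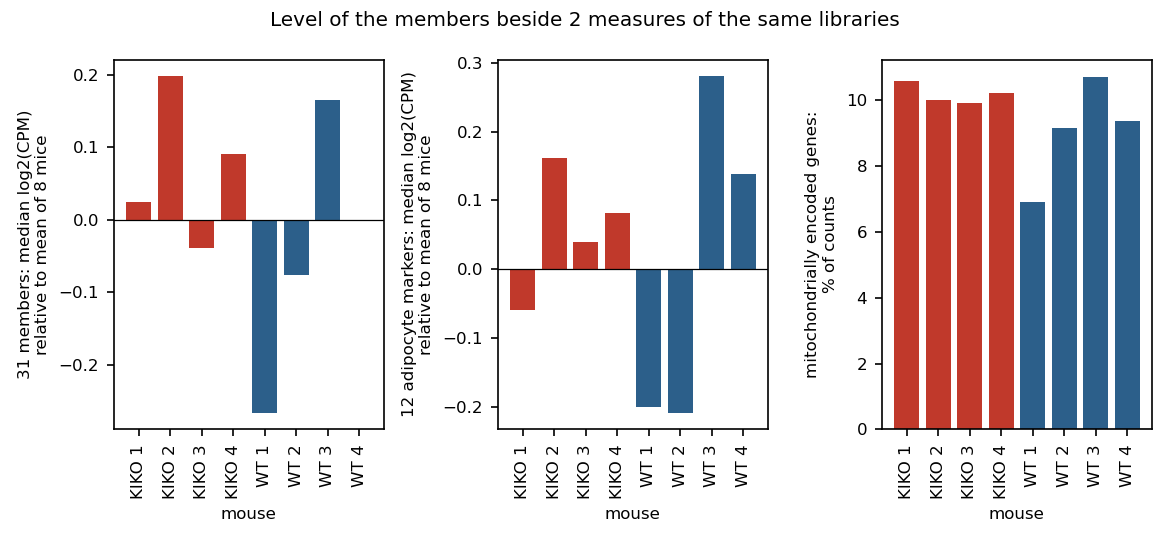
Median log2 level of the 31 members (left) and of 12 adipocyte markers (middle) relative to the mean of the 8 mice, and percent of counts on mitochondrially encoded genes (right), with KIKO mice left of WT mice and 1 bar per mouse. WT mouse 1 is lowest for the members (-0.27) and for the mitochondrial share (6.91%), and WT mouse 3 is highest for the adipocyte markers (0.28) and for the mitochondrial share (10.7%).

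Total counts per library were 2602189 to 3478539, and the members took 12413 to 15723 counts in KIKO and 11477 to 15462 counts in WT mice. Endothelial markers had fold changes below 1 for 10 of 10 tested (summed level 540 to 844 CPM in KIKO and 807 to 1042 CPM in WT mice, 1 of 10 passed), and macrophage markers above 1 for 9 of 10 (1988 to 2488 CPM in KIKO and 1657 to 1874 CPM in WT mice, 1 of 10 passed). The macrophage marker that passed, *Lyz2*, alone took 578 to 705 CPM in KIKO and 226 to 464 CPM in WT mice. Mural markers had fold changes below 1 for 7 of 7 tested (0 passed). Of 7 fibroblast and progenitor markers, 4 were above 1 and 3 below (3174 to 3741 CPM in KIKO and 2588 to 2847 CPM in WT mice, 0 passed). Of 5 mast cell markers tested, 2 passed as higher and 3 were below 1. Of 6 mesothelial markers tested, 1 passed as higher, beside 0.28% of all tested genes. The part of these cell types in the members' differences was not tested. Of 7 brown adipocyte markers, 3 were tested and 0 passed. Among them, *Cidea* had 117, 14.0, 11.7 and 45.4 CPM in KIKO mice, against 9.51 to 18.4 CPM in WT mice. The part of brown adipocytes was not tested either. Of 6 epididymal epithelium markers, 5 had no count in any library.

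Ratios between partner genes were taken within each library, where scaling between libraries cancels. They were computed for 6 pairs and described without a test. The ratio of *Idh3b* to *Idh3a* counts was 0.985, 0.895, 0.761 and 1.04 in KIKO mice, against 0.480, 0.568, 0.765 and 0.708 in WT mice. Only KIKO mouse 3 and WT mouse 3 crossed, by a small margin. The mean log2 ratio differed by 0.56, with SDs of 0.20 in KIKO and 0.31 in WT mice.

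The ratio of *Pdk2* to *Pdk1* counts was 4.52, 4.24, 5.08 and 5.22 in KIKO mice, against 9.52, 6.98, 6.72 and 5.19 in WT mice, a difference of the mean log2 ratio of -0.55. WT mouse 4 lay among the KIKO mice and the other WT mice above them. The ratio of *Suclg2* to *Sucla2* was 0.175, 0.164, 0.142 and 0.178 in KIKO mice, against 0.156, 0.0867, 0.0987 and 0.133 in WT mice, a difference of 0.51, with WT mouse 1 inside the KIKO range. For the cytosolic and mitochondrial pairs, the differences of the mean log2 ratio were -0.38 for *Idh1* over *Idh2*, -0.38 for *Got1* over *Got2* and 0.10 for *Mdh1* over *Mdh2*. All 6 pairs overlapped between the genotypes, and each difference rests on genes already described.

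**Figure D5:**
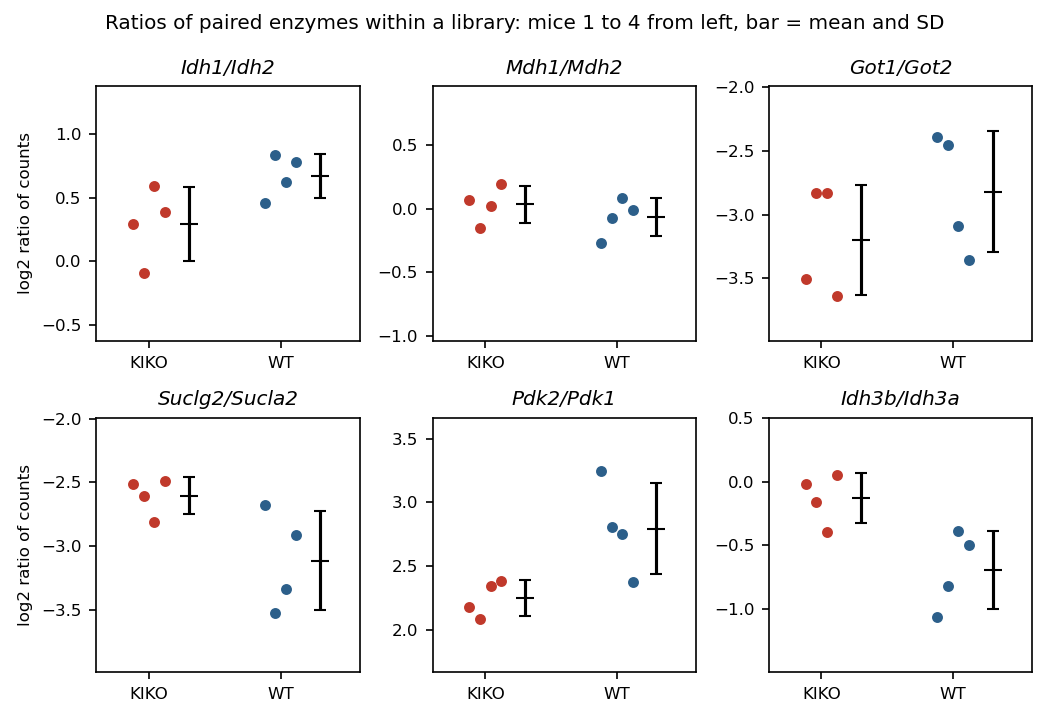
Log2 ratio of the counts of 2 partner genes within a library, for 6 pairs, in KIKO (left) and WT (right) mice, with mice 1 to 4 from left to right and the mean ± SD beside them; each axis spans the same 2 log2 units. The genotypes overlap in every pair, least for *Idh3b*/*Idh3a*, whose means differ by 0.56.

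Genes around the set were read from 3 lists that hold no member. Of 27 further pyruvate and cycle genes, 24 were tested and 0 passed in edgeR, with a median log2 fold change of -0.01. At an unadjusted p under 0.05, 3 were higher and 2 lower, beside 7.13% and 9.06% of all tested genes. The genotypes did not overlap for 1 higher and 0 lower genes, beside 3.89% and 4.56% of all tested genes. *Slc25a12*, the aspartate-glutamate carrier of the malate-aspartate shuttle, had 34.0, 20.8, 28.5 and 22.6 CPM in KIKO mice, against 15.5, 18.5, 19.4 and 18.8 CPM in WT mice, without overlap (log2 fold change 0.56, adjusted p = 0.153 in edgeR's quasi-likelihood test). *Sdhb*, the iron-sulfur subunit of succinate dehydrogenase, averaged 476 ± 54.6 CPM in KIKO and 344 ± 86.6 CPM in WT mice (log2 fold change 0.47, adjusted p = 0.169 in edgeR). Without WT mouse 3, where 2.53% of all tested genes passed as higher, *Sdhb* and the phosphatase gene *Pdp2* passed too.

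The E2 subunits encoded by *Dlat* and *Dlst* carry lipoic acid. Of 5 genes listed around its attachment (*Lias*, *Lipt1*, *Lipt2*, *Nfu1* and *Gcsh*), 4 were tested and 0 passed in edgeR. At an unadjusted p under 0.05, 1 was lower, beside 9.06% of all tested genes. *Lias*, lipoic acid synthase, which is itself an iron-sulfur enzyme, had 91.8, 104, 99.5 and 99.0 CPM in KIKO mice, against 118, 127, 132 and 113 CPM in WT mice. Every KIKO mouse was below every WT mouse, which held for 4.56% of all tested genes. The fold change of *Lias* was 0.802 (95% interval 0.680 to 0.947, adjusted p = 0.176 in edgeR's quasi-likelihood test). *Nfu1*, which delivers iron-sulfur clusters to *Lias*, averaged 42.0 ± 5.87 CPM in KIKO and 34.2 ± 6.43 CPM in WT mice. Upstream of the set, 19 of 21 genes of glycolysis and lactate were tested and 0 passed in edgeR, with a median log2 fold change of 0.02. At an unadjusted p under 0.05, 1 of them was higher, beside 7.13% of all tested genes. The smallest p there were those of *Eno1*, an enolase (22.8 ± 3.69 CPM in KIKO and 16.3 ± 2.09 CPM in WT mice, log2 fold change 0.48), and of *Pfkfb3*, a regulator of glycolytic flux (468 ± 190 CPM in KIKO and 294 ± 152 CPM in WT mice, log2 fold change 0.67). *Eno1* had only 44 to 81 counts per library. *Gapdh* had 70 to 195, and *Pgk1*, at 2 to 9, was not tested, so these central genes of the list were thinly counted. Pseudogenes were searched by name for the members alone, so reads lost to copies of *Eno1* or other listed genes were not checked. *Ldha*, a lactate dehydrogenase subunit, averaged 607 ± 32.9 CPM in KIKO and 544 ± 145 CPM in WT mice.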

How the data were processed

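vWAT of 4 KIKO and 4 WT mice was sequenced, with 1 library per mouse. The authors trimmed reads with Trimmomatic, aligned them to GRCm38 with HISAT2 and made the deposited raw counts per gene, with StringTie for the count matrices according to the study's methods. The annotation release is not given in the sources used here. The authors' second deposited table holds log2 values of the count times 1 constant per library, plus 1, and served as an alternative. Kit and instrument differ between the study's methods and the labels, so strand use is unsure and levels are not compared between genes.

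The counts were fitted by edgeR 4.0.16 in R 4.3.3 (TMM, filterByExpr by genotype, quasi-likelihood test, Benjamini-Hochberg over 11080 genes). Each standard error follows from the test statistic. Symbols came from GENCODE annotation of GRCm38. Alternatives were other scalings and filters, DESeq2 1.42.0, limma 3.58.1 (voom, and trend with pseudocounts of 1 and 8), edgeR's newer estimator, the replicate number as a block, a length and GC correction with mgcv 1.9.3, and leaving out each mouse. Steps were tested on simulated data. Separate mice are the replicates. The members and lists were chosen with earlier results of these data known. Every member is named, and values per mouse are given for members whose genotypes do not overlap and for the 8 with the smallest p. Of each related list, genes that pass or the 2 with the smallest p are named. Per-mouse values of *Mdh1*, *Pdhx* and *Slc25a10* were chosen after their values were seen. So were the genes *Ldha*, *Pdp2*, *Pdk3*, *Pdk4*, *Pgk1* and *Gapdh*, and the markers *Cfd*, *Lyz2* and *Cidea*. The gene altered in KIKO mice is not reported here.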

Additional observations from a re-analysis of the deposited data

Results flagged for a closer look

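In a group of 4 mice, a value was set apart when its gap to the nearest other mouse, as a share of the group's range, passed Dixon's 95% critical value, which chance gives for about 1 in 20 groups. Of 62 groups (31 members in each genotype), 7 held such a value. In KIKO mice these were *Pdhx* in mouse 3 (42.8 CPM, lowest), and *Pdk1* (34.0 CPM) and *Pdk2* (144 CPM) in mouse 2, both highest. In WT mice they were *Pdk2* in mouse 1 (193 CPM, highest), *Idh3g* in mouse 3 (207 CPM, highest), *Suclg2* in mouse 2 (9.09 CPM, lowest) and *Fh1* in mouse 3 (39.5 CPM, lowest).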

How the results depend on the processing

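No member passed under any of the 20 settings tried except without WT mouse 3, where 2 passed as higher (*Suclg1* and *Mdh1*); over the fits without 1 mouse the count was 0 to 2, as it was for the related genes. Of all genes, 75 passed in the main analysis, 382 with no filter on low counts, 284 in DESeq2, 40 in limma-voom, 45 in limma-trend with a pseudocount of 1, 32 with the length and GC correction, and 0 to 654 without 1 mouse. Leaving out KIKO mouse 4, WT mouse 2 or WT mouse 4 gave 0 (1328, 1344 and 1533 at an unadjusted p under 0.05), leaving out KIKO mouse 1, 2 or 3 gave 4, 19 and 18, and leaving out WT mouse 1 or 3 gave 48 and 654. With the replicate number as a block, 0 genes passed in edgeR (1427 at an unadjusted p under 0.05). Same-numbered mice did not deviate together (correlations of -0.152, -0.133, -0.113 and 0.03), so expression gave no sign of pairing by number. These correlations cannot show whether same-numbered mice were littermates or were processed together. The members' median log2 fold change was 0.01 to 0.16 over all settings. Scaling by library totals alone shifted the median of all genes to -0.08.

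Signs close to 0 turned. With library totals alone, the log2 fold changes were -0.0013 for *Dlat*, -0.051 for *Pdp1*, -0.064 for *Dlst* and -0.031 for *Slc25a1*. In limma-voom they were 0.0051 for *Pdhx*, -0.0082 for *Pdp1* and 0.019 for *Slc25a10*. In limma-trend they were 0.018 for *Pdhx* and 0.030 for *Slc25a10* with a pseudocount of 1, and 0.013 and 0.025 with 8. With the length and GC correction they were -0.0011 for *Dlst* and -0.0074 for *Slc25a1*. Without 1 mouse, the log2 fold change ran from -0.040 to 0.22 for *Mpc2*, -0.20 to 0.00015 for *Pc*, -0.013 to 0.12 for *Dlat*, -0.26 to 0.16 for *Pdhx*, -0.078 to 0.23 for *Pdk1*, -0.14 to 0.12 for *Pdp1*, -0.21 to 0.026 for *Idh1*, -0.043 to 0.082 for *Dlst*, -0.18 to 0.029 for *Sucla2*, -0.019 to 0.21 for *Fh1*, -0.061 to 0.25 for *Me2*, -0.18 to 0.19 for *Slc25a1* and -0.39 to 0.14 for *Slc25a10*. The cause was not tested. *Pdp1*, *Got1* and *Me2* had 36 counts or fewer in every library, which limits the precision of their values.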
